A study of Mus musculus with 3 samples.

Results

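Integrins and the laminin network they bind were followed as a family of 37 genes, out of the 15554 genes measured in NIH3T3 cells, a mouse fibroblast line of embryonic origin. The members are the genes whose symbol names an integrin α subunit (16 genes), an integrin β subunit (7), a laminin chain (11), a nidogen (*Nid1* and *Nid2*) or perlecan (*Hspg2*). The rule reads the symbol and uses no measured value. *Itga9*, *Itga10* and *Itgb8* were not analysed here. The cells were starved of serum in IMDM for 24 h and then kept for another 24 h in the same medium alone (CTRL), with 100 ng/mL of GDF15 (GDF15) or with 4 ng/mL of TGF-β (TGF-β). RNA of 3 samples was pooled within each treatment, so that each group is 1 library of 1 cell line, and no p-value can be given. The values are FPKM, fragments normalised for exon length and for the number of mapped fragments. A change is a difference of log2(FPKM + 1) between libraries, a scale on which differences between low FPKM values come out smaller than they are. A gene was counted as over 2-fold changed when the absolute difference exceeded 1, after the fold criterion of the study. Both stimuli were compared with the same CTRL library, so their changes are not independent of each other.

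An integrin is a heterodimer of an α and a β subunit that spans the cell membrane and ties the extracellular matrix to the actin cytoskeleton. The α subunit largely sets the ligand. α5 and αv recognise the RGD sequence of fibronectin and vitronectin, α3, α6 and α7 bind laminins, and α1, α2 and α11 bind collagens. Integrins with αv also bind the latency peptide of TGF-β and can release the active cytokine from it. Laminins are trimers of an α, a β and a γ chain that polymerise into the sheet of the basement membrane. Nidogen bridges this sheet to the collagen IV network, and perlecan is a large heparan sulfate proteoglycan bound to both.

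The promoters of *Itga11*, *Itgb5* and *Itgb7*, the genes over 2-fold in any comparison, and of *Nid1* are shown because these genes had the largest changes described below. Sequences are from RefSeq (GRCm38.p6), 250 bases before to 50 bases after the transcription start, 5′ to 3′ on the strand of the gene. Capitals mark matches on either strand to GGGCGG (SP1), CAGACA (SMAD), TGANTCA (AP-1) or GGAATG (TEAD), and matches that overlap or adjoin form 1 longer run of capitals.
Itga11 (chr9:62677605-62677904, plus strand): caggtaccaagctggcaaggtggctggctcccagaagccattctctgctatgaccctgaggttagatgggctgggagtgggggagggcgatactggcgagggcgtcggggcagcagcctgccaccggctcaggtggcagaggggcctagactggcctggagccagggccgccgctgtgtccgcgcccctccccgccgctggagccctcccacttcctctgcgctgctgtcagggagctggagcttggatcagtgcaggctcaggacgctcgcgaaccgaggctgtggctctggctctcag
Itgb5 (chr16:33829415-33829714, plus strand): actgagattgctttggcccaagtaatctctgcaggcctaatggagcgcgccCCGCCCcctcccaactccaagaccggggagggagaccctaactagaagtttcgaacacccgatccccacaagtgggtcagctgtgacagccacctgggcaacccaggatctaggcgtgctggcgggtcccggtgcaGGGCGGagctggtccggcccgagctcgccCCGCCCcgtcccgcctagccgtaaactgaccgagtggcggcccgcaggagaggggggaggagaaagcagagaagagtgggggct
Itgb7 (chr15:102231886-102232185, minus strand): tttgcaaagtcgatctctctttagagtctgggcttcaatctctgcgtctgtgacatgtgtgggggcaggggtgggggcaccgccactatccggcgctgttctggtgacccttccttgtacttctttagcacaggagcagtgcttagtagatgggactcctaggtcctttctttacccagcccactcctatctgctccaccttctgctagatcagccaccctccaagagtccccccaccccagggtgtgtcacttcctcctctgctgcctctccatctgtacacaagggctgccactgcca
Nid1 (chr13:13437352-13437651, plus strand): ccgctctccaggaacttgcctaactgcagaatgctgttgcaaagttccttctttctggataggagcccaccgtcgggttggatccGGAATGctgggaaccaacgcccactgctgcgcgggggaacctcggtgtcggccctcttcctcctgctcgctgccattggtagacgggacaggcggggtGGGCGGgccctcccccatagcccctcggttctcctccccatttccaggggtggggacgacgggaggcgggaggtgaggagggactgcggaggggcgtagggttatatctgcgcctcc
The *Itga11* and *Itgb7* windows held none of these letters. That of *Itgb5* held 3 SP1 matches, and that of *Nid1* held 1 SP1 and 1 TEAD match. Of all 32851 promoters in the RefSeq table, 35.7% held the SP1 letters, 21.04% the SMAD letters, 14.7% the TEAD letters and 7.81% the AP-1 letters. Promoters were found for 22 of the 37 genes in 25 windows, of which 14 held SP1, 7 SMAD, 3 TEAD and 2 AP-1 letters. A match here describes the sequence and is not a binding site.

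The libraries were of similar depth, estimated from the steps of whole fragments among low FPKM values at 18600000 (CTRL), 21600000 (GDF15) and 17700000 (TGF-β) fragments. Of 12 fibroblast markers, 10 were at an FPKM of 1 or more throughout, and the list summed to 16437 (CTRL), 18908 (GDF15) and 17339 (TGF-β). *Col1a1*, *Col1a2*, *Col3a1*, *Fn1*, *Vim* and *S100a4* were the most abundant, and *Dcn*, *Pdgfra*, *Pdgfrb* and *Thy1* lay between 34.7 and 419. The sums cover opposite changes. Of the 10 markers, 5 were higher and 5 lower with GDF15, and 4 were higher and 6 lower with TGF-β. With TGF-β, *Col1a1* (0.79) and *Col1a2* (0.66) had the highest changes, and *Pdgfra* (-0.79) and *Dcn* (-0.75) the lowest. *Lum* and *Fap* were at most 0.0299 and 0.0643, so these markers of tissue fibroblasts were near absent. Of 9 endothelial and 11 epithelial markers, 0 reached an FPKM of 1, and the highest were *Erg* at 0.306 and *Cdh1* at 0.685. In place of a replicate error, the local spread is given, the scaled median absolute deviation of the changes of the 500 genes closest in mean FPKM. Intervals beside FPKM ratios are 95% exact binomial intervals on estimated fragments and cover counting error only.

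Averaged over the libraries, 19 of the 37 genes reached an FPKM of 1. A few subunits made up most of the integrin transcripts. *Itga5*, *Itga6* and *Itgav* together gave 94.9%, 94.1% and 93.2% of the summed α subunit FPKM (CTRL, GDF15 and TGF-β, respectively). *Itgb1*, *Itgb3* and *Itgb5* gave 94.96%, 97.8% and 98.6% of the summed β subunit FPKM in the same order. Among laminin chains, *Lama4* gave 98.5%, 98.4% and 98.6% of the α chain FPKM and *Lamc1* 98.2%, 98.3% and 98.1% of the γ chain FPKM. *Lamb1* and *Lamb2* shared the β chains, with *Lamb1* at 63.1%, 66.98% and 61.7%.

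**Figure D1:**
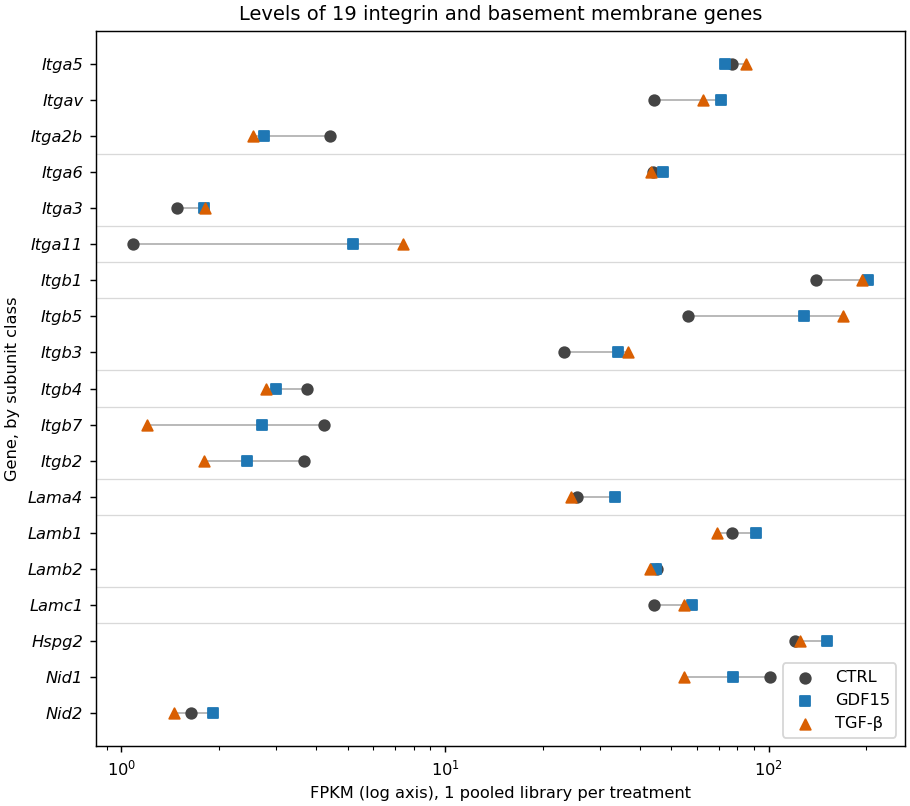
FPKM (horizontal log axis) of the 19 integrin and basement membrane genes averaging 1 FPKM or more, with 1 point per pooled library (CTRL circles, GDF15 squares, TGF-β triangles), a line from the lowest to the highest library, and genes grouped by subunit class. *Itga11* and *Itgb5* lie lowest in CTRL and highest in TGF-β, whereas *Itgb7* and *Nid1* lie highest in CTRL and lowest in TGF-β.

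With GDF15, 2 of the 37 genes were over 2-fold changed, where 0.289% of all genes were. Both, *Itga11* and *Itgb5*, were higher (all genes 0.212%) and 0 were lower (all genes 0.0772%). With TGF-β, 3 of the 37 were over 2-fold changed, against 0.913% of all genes. *Itga11* and *Itgb5* were higher (all genes 0.579%) and *Itgb7* was lower (all genes 0.334%). Between the stimulated libraries, 0 of the 37 differed by over 2-fold, where 0.103% of all genes did, 0.0836% higher and 0.0193% lower in TGF-β. At a criterion of 1.5-fold, chosen after seeing the data, 3 members passed with GDF15 (1.81% of all genes). They were *Itga11*, *Itgav* and *Itgb5*, all higher (all genes 0.791% higher and 1.02% lower). With TGF-β, 7 passed (3.6% of all genes). *Itga11*, *Itgb3* and *Itgb5* were higher (all genes 1.65%), and *Itga2b*, *Itgb2*, *Itgb7* and *Nid1* were lower (all genes 1.95%). Of these calls at 1.5-fold, *Itgav* and *Itga2b* were below the criterion in other settings. *Itgav* with GDF15 was at 0.68 on the log2 scale as calculated, at 0.57 with the trend by length removed and at 0.50 with length and GC content removed. *Itga2b* with TGF-β was at -0.61 as calculated, and at -0.56 with upper quartile scaling, -0.54 with the running median by expression removed, -0.54 with the trend by length removed and -0.44 with length and GC content removed. Other settings also added calls among members averaging 1 FPKM or more. With nothing added to the FPKM (no pseudocount), *Itga2b* (-0.67), *Itgb7* (-0.64) and *Itgb2* (-0.59) passed as lower with GDF15. With the running median by expression removed, *Itgb1* passed as higher with GDF15 (0.68) and TGF-β (0.59), and *Itgb3* with GDF15 (0.59). As calculated, *Itgb7* was the 1 member over 1.5-fold between the stimulated libraries, lower in TGF-β. Of all genes, 1.02% passed there (0.624% higher and 0.399% lower). The median over the 37 genes was 0.03 with GDF15 and 0 with TGF-β, beside a median over all genes of 0 in both, values held near 0 by the many genes with low FPKM. Over the 19 members averaging 1 FPKM or more, it was 0.17 with GDF15 (12 higher and 7 lower) and -0.03 with TGF-β (9 higher and 10 lower), beside -0.03 and -0.07 over the 9226 such genes of the table. The median with TGF-β turned to 0.04 (12 higher and 7 lower) with the running median by expression removed, 0.09 (12 higher and 7 lower) with trends by length and GC content removed and 0.04 (11 higher and 8 lower) with upper quartile scaling, and it was 0.00 (10 higher and 9 lower) with the trend by length removed. In such bulk RNA, fewer cells that express a gene and less of its RNA per cell cannot be told apart.

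**Figure D2:**
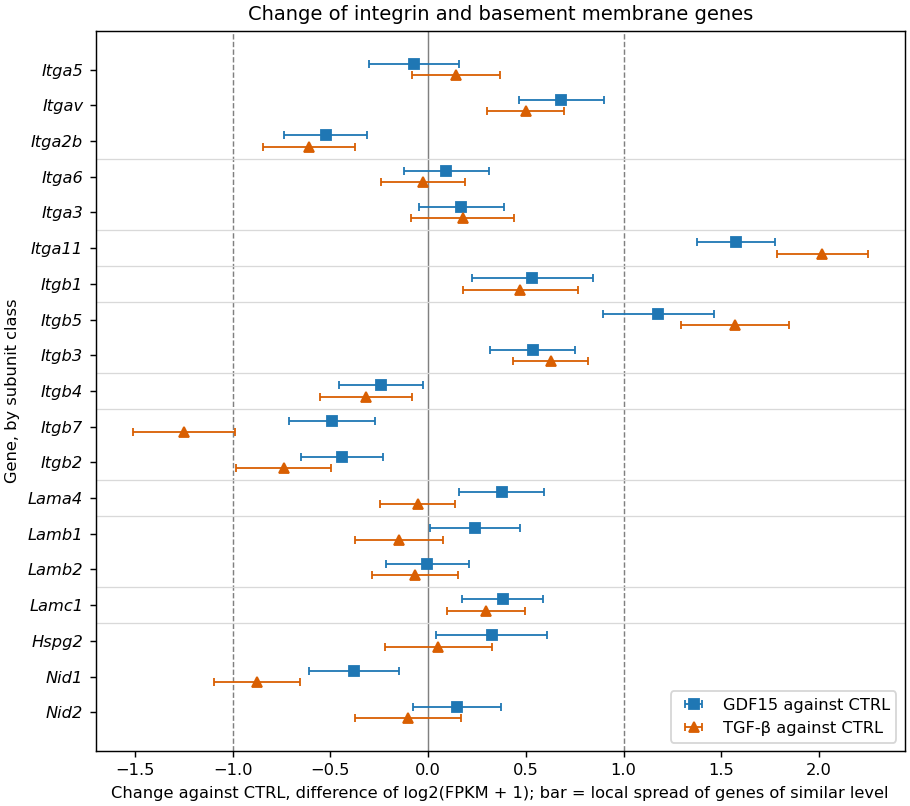
Change against CTRL (horizontal axis, difference of log2(FPKM + 1)) of the same 19 genes with GDF15 (squares) and TGF-β (triangles), with bars for the local spread of genes of similar level, which is not a replicate error, and dashed lines at 2-fold. *Itga11* and *Itgb5* lie beyond 2-fold in both comparisons, and *Itgb7* does so with TGF-β.

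*Itga11* encodes α11, which pairs with β1 as a receptor for fibrillar collagen and is known from stromal cells. It lies on chromosome 9 of GRCm38 at 62677826 to 62783982 (plus strand), and its longest coding transcript has 30 exons. Its FPKM was 1.08 (CTRL), 5.20 (GDF15) and 7.43 (TGF-β). CTRL was the lowest library and TGF-β the highest. The FPKM ratio to CTRL was 4.80 with GDF15 (interval 3.86 to 6.03) and 6.86 with TGF-β (5.53 to 8.60). The changes of 1.57 and 2.02 lay 7.76 and 8.88 local spreads above the median of genes of similar level. They ranked 12 and 20 from the top of all 15554 genes. TGF-β exceeded GDF15 by a ratio of 1.43 (1.27 to 1.61). An estimated 96.05, 535 and 627 fragments stand behind the values in the order CTRL, GDF15 and TGF-β. At these levels, *Itga11* made up 0.622%, 2.55% and 3.62% of the α subunit FPKM.

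The other collagen-binding subunits were low. *Itga1*, a receptor subunit for collagen IV in particular, was at 0.647 (CTRL), 1.09 (GDF15) and 0.785 (TGF-β). *Itga1* was highest with GDF15, at a ratio to CTRL of 1.69 (1.36 to 2.11), and the TGF-β ratio was 1.21 (0.953 to 1.55). Its change with GDF15 was 0.35, or 1.70 local spreads above genes of similar level. The *Itga1* transcript has 10967 bases. Among the 460 genes with the longest transcripts and a mean FPKM of 1 or more, the median change with GDF15 was 0.17. A second gene shares 685 exon bases with *Itga1* on its own strand. *Itga2*, known from platelets and epithelia, was at most 0.160. *Itga11* was thus the most abundant of these 3 genes in every library.

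*Itgb5* encodes β5, which pairs with αv alone. It lies on chromosome 16 of GRCm38 at 33829665 to 33949338 (plus strand). Its FPKM was 56.3 (CTRL), 129 (GDF15) and 169 (TGF-β). By level it ranked 969 of all genes without stimulation, 321 with GDF15 and 259 with TGF-β. The ratio to CTRL was 2.29 (2.19 to 2.38) with GDF15 and 3.005 (2.89 to 3.13) with TGF-β. The changes of 1.18 and 1.57 lay 4.52 and 5.89 local spreads above genes of similar level and ranked 22 and 30 from the top. *Itgb5* was thus the abundant member over 2-fold, with at least 3225 estimated fragments in each library.

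Its partner *Itgav*, the αv subunit, was at 44.1 (CTRL), 71.3 (GDF15) and 62.7 (TGF-β). It was highest with GDF15, with a change of 0.68 (3.49 local spreads) and one of 0.50 with TGF-β (2.91 local spreads). *Itgb3*, whose product β3 also pairs with αv, was at 23.4, 34.3 and 36.6 in the order CTRL, GDF15 and TGF-β. It was lowest in CTRL, with changes of 0.53 and 0.63. *Itgb6*, the epithelial partner of αv, was listed at 0 in all 3 libraries, and *Itga8*, another RGD-binding subunit, was at most 0.0985. The FPKM of *Itgb5* over that of *Itgb3* was 2.41, 3.75 and 4.61 (CTRL, GDF15 and TGF-β). The sum of *Itgb3* and *Itgb5* over *Itgav* was 1.81, 2.29 and 3.28. Per unit of length, transcripts of these β subunits outnumbered those of αv in each library, and most so in TGF-β. A noncoding transcript on the opposite strand, *Gm13684*, overlaps 634 exon bases of *Itgav*, and whether strand was used in counting is not given in the sources used here.

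*Itgb1* encodes β1, the shared partner of most α subunits in fibroblasts, and was the most abundant integrin gene in every library. Its FPKM was 139.5 (CTRL), 202 (GDF15) and 194 (TGF-β). Both stimulated libraries lay above CTRL, at changes of 0.53 and 0.47, or 2.22 and 2.003 local spreads above genes of similar level. The share of *Itgb1* in the β subunit FPKM was 60.5%, 54.2% and 47.8%, and that of *Itgb5* was 24.4%, 34.4% and 41.7% (CTRL, GDF15 and TGF-β). *Itgb1* thus held a smaller share, and *Itgb5* a larger one, in both stimulated libraries. Summed over the β subunits, FPKM was 231, 373 and 405, and over the α subunits it was 174, 203 and 205. The α to β ratio was 0.754, 0.545 and 0.506, lowest in TGF-β. The α subunits that can pair with β1, summed, stood at 1.21, 0.990 and 1.04 times the FPKM of *Itgb1*.

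**Figure D3:**
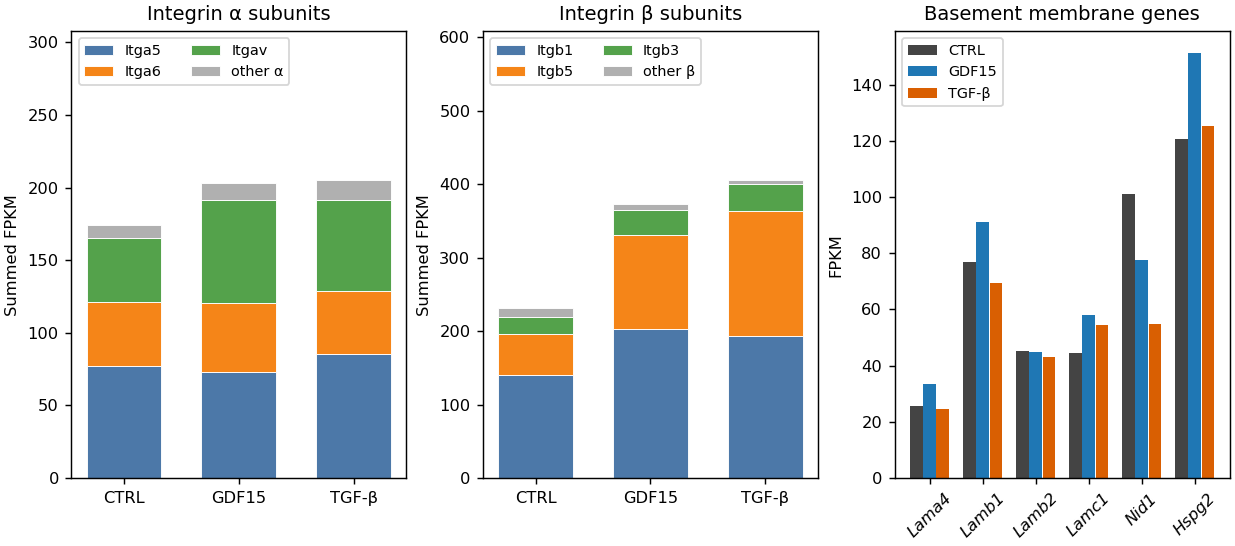
Left and centre, stacked bars of summed FPKM (vertical axis from 0) of integrin α and β subunits by library, and right, FPKM of 6 basement membrane genes for CTRL, GDF15 and TGF-β. The β subunits sum to 231, 373 and 405 FPKM, mostly *Itgb1* and *Itgb5*, and *Nid1* is at 101, 77.5 and 54.7 (CTRL, GDF15 and TGF-β).

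The fibronectin receptor subunit *Itga5* and the laminin receptor subunit *Itga6* differed little from CTRL in either stimulated library. *Itga5* was at 77.1 (CTRL), 73.2 (GDF15) and 85.2 (TGF-β), with changes of -0.07 and 0.14, both within 1 local spread of genes of similar level. Its ratios to CTRL were 0.949 (0.917 to 0.983) and 1.11 (1.07 to 1.15). These intervals cover counting error only and are narrow because *Itga5* is abundant. Between the stimulated libraries, *Itga5* was higher in TGF-β by 0.22, or 1.31 local spreads. *Itga6* was at 44.03, 47.01 and 43.2, with changes of 0.09 and -0.03. *Itga3*, another laminin-binding subunit, was low at 1.48, 1.79 and 1.81. Its changes of 0.17 and 0.18 lay within 1 local spread of genes of similar level. The counting intervals of its ratios to CTRL were 0.960 to 1.53 with GDF15 and 0.957 to 1.56 with TGF-β. *Itga7*, the subunit typical of muscle, ranged from 0.420 to 0.631. *Itgb4*, whose product pairs with α6 in the hemidesmosomes of epithelia, was at 3.73, 3.01 and 2.80. It was highest in CTRL, and its changes of -0.24 and -0.32 lay 1.12 and 1.08 local spreads below genes of similar level. A noncoding gene on the opposite strand shares 537 exon bases with *Itgb4*.

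Among the β subunits known from leukocytes, *Itgb7* and *Itgb2* averaged over 1 FPKM, and both were highest in CTRL. Of the 9226 genes averaging that much, 5129 were lower with GDF15 and 5797 with TGF-β. *Itgb7* encodes β7, which pairs with α4 and αE on lymphocytes, and lies on chromosome 15 of GRCm38 at 102215995 to 102231944 (minus strand). Its FPKM was 4.24 (CTRL), 2.73 (GDF15) and 1.20 (TGF-β). CTRL was highest, GDF15 in between and TGF-β lowest. The ratio to CTRL was 0.643 (0.516 to 0.801) with GDF15 and 0.284 (0.205 to 0.386) with TGF-β, and the ratio of TGF-β to GDF15 was 0.441 (0.315 to 0.608). The change of -1.25 with TGF-β ranked 20 from the bottom of all genes and lay 4.56 local spreads below genes of similar level. The change with GDF15 was -0.49. The difference of TGF-β to GDF15 was -0.76, which ranked 21 from the bottom. It was -1.12 with a pseudocount of 0.1 and -1.18 without one, both past 2-fold. An estimated 196, 146 and 52.8 fragments stand behind these values.

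*Itgb2*, the β subunit shared by the leukocyte integrins, was at 3.68 (CTRL), 2.45 (GDF15) and 1.80 (TGF-β). CTRL was again highest and TGF-β lowest, with changes of -0.44 and -0.74. The ratio of TGF-β to CTRL was 0.490 (0.376 to 0.634), and without a pseudocount the change was -1.03, past 2-fold. *Itga2b*, the platelet subunit that pairs with β3, was at 4.41, 2.76 and 2.55, with changes of -0.52 and -0.61. The α subunits that pair with β2 and β7 were listed near 0, since *Itgal*, *Itgam*, *Itgax*, *Itgad*, *Itgae* and *Itga4* reached at most 0.371. *Itgam* shares 3450 exon bases with the coding gene *Gm49368* on its own strand. *Itga4* shares 1124 with *Cerkl* on the opposite strand. How reads from shared bases were assigned is not given in the sources used here. Of 12 leukocyte markers, 3 had an FPKM of 1 or more (*Cd14*, *Lyz2* and *Cd68*), and the summed FPKM of the list was 13.2, 12.8 and 11.5. *Emr1* and *Tyrobp* were listed at 0 throughout and *Ptprc*, the common leukocyte antigen, was at most 0.148. Of 7 platelet markers, 1 (*Gp1bb*) reached an FPKM of 1, and *Pf4* and *Gp6* were listed at 0 throughout. The platelet list summed to 1.90, 1.94 and 2.84, of which *Gp1bb* alone was 1.70, 1.62 and 2.51.

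The laminin transcripts in these cells were mainly those of the α4, β1, β2 and γ1 chains. *Lama4*, the α4 chain of mesenchymal and vascular basement membranes, was at 25.5 (CTRL), 33.4 (GDF15) and 24.6 (TGF-β). GDF15 was the highest library, and TGF-β was close to CTRL. The changes were 0.38 and -0.05, and the difference of TGF-β to GDF15 was -0.43, or 2.89 local spreads below genes of similar level. *Lamb1*, the β1 chain, was at 77.1, 91.2 and 69.3. GDF15 was again the highest library and TGF-β the lowest, with a difference of TGF-β to GDF15 of -0.39 (2.69 local spreads). *Lamc1*, the γ1 chain of most laminin trimers, was at 44.3, 58.1 and 54.6. It was higher than CTRL in both stimulated libraries, by 0.38 and 0.30. *Lamb2*, the β2 chain, was at 45.1, 44.9 and 42.97, the smallest range of these chains. Summed α chains stood at 0.573, 0.575 and 0.447 times the FPKM of the γ chains, and β chains at 2.70, 2.30 and 2.02 times. By summed FPKM, transcripts of α chains were thus lower than those of β and of γ chains in each library. Protein was not measured.

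Other laminin chains were low or listed at 0. *Lama3* and *Lamb3*, chains of epithelial laminin, were at 0.188 to 0.398 and at most 0.0582. *Lama2* and *Lama5*, the α chains of muscle and of mature epithelial and vascular membranes, were at most 0.0433 and 0.140. *Lamc3* was at most 0.0280, and *Lama1*, the α chain of the early embryo, was listed at 0 in all 3 libraries.

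*Nid1*, which encodes nidogen-1, the link between laminin γ1 and collagen IV, had the lowest change with TGF-β among members with a mean FPKM over 10. It lies on chromosome 13 of GRCm38 at 13437551 to 13512269 (plus strand). Its FPKM was 101 (CTRL), 77.5 (GDF15) and 54.7 (TGF-β). CTRL was highest, TGF-β lowest and GDF15 between them. The ratio to CTRL was 0.766 (0.746 to 0.787) with GDF15 and 0.541 (0.524 to 0.559) with TGF-β. The change was -0.38 with GDF15 and -0.87 with TGF-β, and the latter ranked 75 from the bottom of all genes, 3.68 local spreads below genes of similar level. The difference of TGF-β to GDF15 was -0.49 (3.43 local spreads). Per unit of length, *Nid1* stood at 2.28, 1.33 and 1.002 times the FPKM of its ligand *Lamc1*. An antisense transcript (*Gm48682*) shares 143 exon bases with *Nid1*. *Nid2*, the second nidogen, was low at 1.63, 1.92 and 1.45, and *Rtraf* on the opposite strand shares 437 of its exon bases. *Hspg2*, perlecan, was among the most abundant members at 121, 151 and 125, highest with GDF15, with changes of 0.33 and 0.05.

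Of the 7 laminin, nidogen and perlecan genes with a mean FPKM of 1 or more, 5 were higher and 2 lower in GDF15 than in CTRL (median 0.24), and 2 were higher and 5 lower in TGF-β (median -0.07). Over all 9226 genes with such a mean, the median was -0.03 with GDF15 and -0.07 with TGF-β, where 5797 were lower. With TGF-β, the split of the 7 genes became 4 higher and 3 lower both when the running median by expression was removed (median 0.01) and when trends with length and GC content were removed (median 0.02). With GDF15, the median of the 7 was 0.15 (5 higher and 2 lower) with the trend by length removed. It was 0.21 with length and GC content removed and 0.32 with the running median by expression removed (6 higher and 1 lower in both). All 7 were lower in TGF-β than in GDF15, with a median of -0.27. Of the same 9226 genes, 5566 were lower in TGF-β than in GDF15 (median -0.04). Transcript length moved with these changes. Across the 5405 genes averaging 10 FPKM or more, which are not replicates, Spearman's rho of length with the change was 0.52 with GDF15, 0.26 with TGF-β and -0.36 between the stimulated libraries. Of 1911 genes with transcripts over 5000 bases and a mean FPKM of 1 or more, 1467 were lower in TGF-β than in GDF15. With the trend by length removed, 5 of the 7 genes were lower and the median was -0.17. *Hspg2*, whose transcript of 14187 bases is the longest of the family, had a change with GDF15 of 0.15 after this removal and of 0.33 when trends with length and GC content were both removed. The rank correlation of GC content with the change was -0.46 with GDF15 and -0.34 with TGF-β. With the trend by length removed, *Itga11*, *Itgb5*, *Itgb7* and *Nid1* had changes of 1.52, 1.21, -0.43 and -0.48 with GDF15 and of 2.04, 1.66, -1.16 and -0.89 with TGF-β. With length and GC content removed, these were 1.63, 1.29, -0.35 and -0.43, and 2.12, 1.71, -1.08 and -0.83. All kept the sign of the change as calculated.

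**Figure D4:**
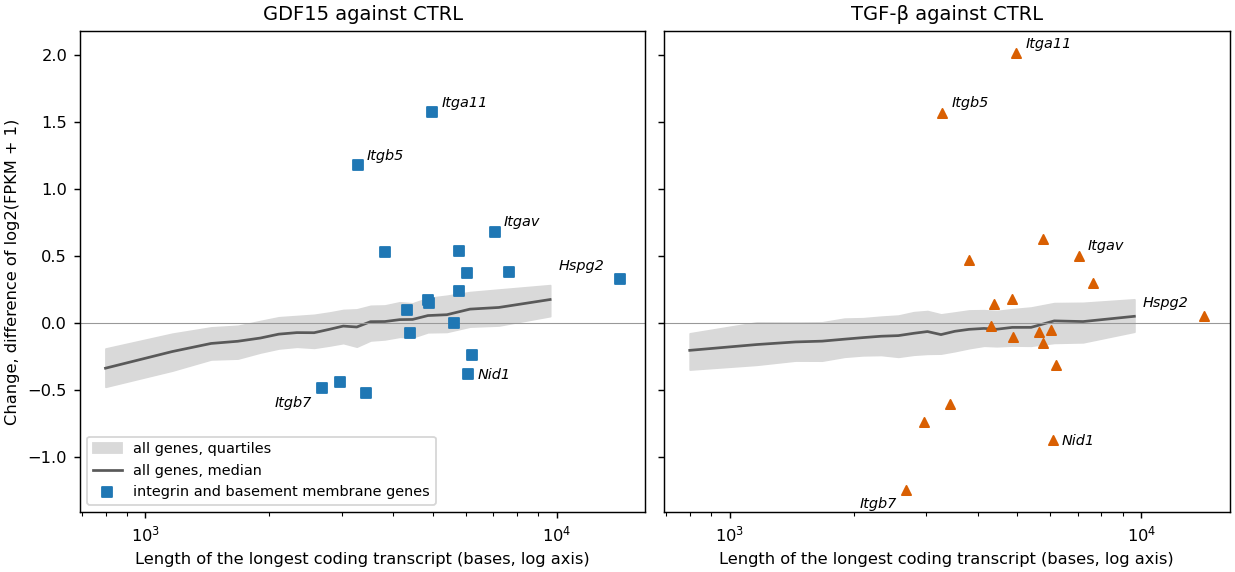
Change against CTRL (vertical axis, difference of log2(FPKM + 1)) by length of the longest coding transcript (log axis, bases) with GDF15 (left) and TGF-β (right), with the median and quartiles of all genes averaging 1 FPKM or more in 20 bins of length. *Itga11* and *Itgb5* lie above the upper quartile in both panels, *Nid1* and *Itgb7* lie below the lower quartile, and all-gene medians are higher for long transcripts than for short ones.

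Other components of the basement membrane were read from a list of 26 symbols, of which 22 were in the table and 8 had a mean FPKM of 1 or more. Of the 22, 0 were over 2-fold changed in any comparison, where 0.289% of all genes were with GDF15, 0.913% with TGF-β and 0.103% between the stimulated libraries. *Col4a1*, a chain of the common collagen IV trimer, was at 197 (CTRL), 281 (GDF15) and 299.6 (TGF-β). *Col4a2*, the other chain of that trimer, was at 171, 251 and 263. Both chains were lowest in CTRL and highest in TGF-β, the reverse order of *Nid1*. The highest change in the list with GDF15 was that of *Col4a2* (0.55), and with TGF-β that of *Tinagl1*, a matrix protein related to a tubulointerstitial nephritis antigen (21.3, 28.4 and 34.9, change 0.68). The lowest with both was that of *Col18a1*, the collagen that carries endostatin (1.71, 1.23 and 0.845, changes -0.28 and -0.56). At 1.5-fold, the criterion chosen after seeing the data, 4 genes of the list were higher with TGF-β (*Col4a1*, *Col4a2*, *Tinagl1* and *Sparc*, a collagen-binding matrix protein at 1108, 1422 and 1666) and 0 with GDF15, where 1.65% and 0.791% of all genes were. The changes of *Col4a1* were 0.51 with GDF15 and 0.61 with TGF-β, and those of *Col4a2* were 0.55 and 0.62, so that the values on either side of this criterion lay close together. Over the 8 genes averaging 1 FPKM or more, the median was 0.38 with GDF15 and 0.55 with TGF-β, with 6 higher and 2 lower in each case. Over the 9226 genes with such a mean it was -0.03 and -0.07, and over the 1911 of these with transcripts over 5000 bases 0.11 and 0.01. The list medians are given without removal of the trend by length. Over all 22 genes of the list, the median was 0.01 with either stimulus.

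The plaque that links integrins to actin was read from 33 symbols, of which 31 were in the table. Of these, 26 had a mean FPKM of 1 or more and 0 were over 2-fold changed in any comparison, beside the same shares of all genes. Their median was 0.02 with GDF15 and -0.06 with TGF-β over the 31 genes, and 0.02 and -0.08 over the 26. *Nedd9*, a docking protein of focal adhesions, had the highest change with GDF15 (10.6, 16.9 and 15.2, change 0.62), and *Actn1*, α-actinin, with TGF-β (76.7, 107 and 114, change 0.57). *Itgb1bp1*, which encodes an inhibitor that binds the β1 tail, had the lowest with both (20.1, 14.2 and 12.8, changes -0.47 and -0.61). At 1.5-fold, 1 plaque gene was higher with GDF15 (*Nedd9*) and 1 lower with TGF-β (*Itgb1bp1*), where 0.791% and 1.95% of all genes were. Among laminin receptors other than integrins, 10 of 11 listed symbols were in the table and 0 were over 2-fold changed, again beside shares of 0.289% and 0.913% of all genes with GDF15 and TGF-β. *Sgcd*, δ-sarcoglycan, had the highest change with both (12.3, 16.9 and 18.3, changes 0.43 and 0.53). *Rpsa*, which encodes a ribosomal protein also described as a laminin receptor, had the lowest (498, 405 and 447, changes -0.30 and -0.16). Dystroglycan (*Dag1*), a main receptor of this group, was at 79.02, 91.5 and 93.2.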

How the data were processed

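For each treatment (CTRL, GDF15 and TGF-β), RNA of 3 samples was pooled into 1 library, made with a stranded mRNA kit and sequenced as 50-base single reads. The authors expressed the deposited values as FPKM from Cufflinks and kept coding genes with a reviewed UniProt entry. The submitters' processing notes list TopHat 1.3.2, Bowtie 0.12.9, Cufflinks 2.0.2 and the build mm10. The gene annotation and the use of strand are not given in the sources used here.

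Members were taken by symbol, and members and gene lists were chosen with earlier results of these data known. Changes are differences of log2(FPKM + 1), and over 2-fold means an absolute change over 1. Members with a mean FPKM of at least 1 or over 2-fold were named with each value. Of each related list, the highest and lowest change with each stimulus were named, and *Col4a1*, *Sparc* and *Dag1* were named after their values were seen. Transcript length, GC content, overlaps and gene coordinates were read from GENCODE M21 (GRCm38), in which 15474 of 15554 rows and all 37 members were found. Values of 1 member and of some markers are not reported here. Depth was estimated as the value at which low FPKM came closest to whole fragments, over 4657 genes with 1 coding transcript of over 600 bases, less 200 bases of length. Ratio intervals need over 3 estimated fragments in both libraries. The alternatives were pseudocounts of 0.5, 0.1 and none, a filter on mean FPKM, upper quartile scaling, and removal of trends with expression, length and GC content. The code was tested on simulated data. Calculations used scipy 1.17.1, pandas 2.3.3 and numpy 2.4.6 under Python 3.11.15, and plots matplotlib 3.10.9.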

Additional observations from a re-analysis of the deposited data

How the results depend on the processing

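No paired analysis was possible because a treatment consists of 1 pooled library, which also means that none could be omitted in turn. *Itga11* and *Itgb5* were over 2-fold higher with both stimuli, and *Itgb7* over 2-fold lower with TGF-β, under all 8 alternatives. Of 456 changes of 19 genes under these alternatives, 444 moved by less than the local spread and 12 by more. Part of this was fixed in advance. All 19 genes pass the filter on mean FPKM, so that setting left their values as they were. The upper quartile factors of 0.977 (CTRL), 0.999 (GDF15) and 1.02 (TGF-β) were too near 1 to shift a change by a local spread. Reversal was scored only for changes over 2-fold, and 0 of these reversed. The 12 belong to *Itga11*, *Itgb2* and *Itgb7* with smaller or no pseudocounts, and reach 2.26 (GDF15) and 2.78 (TGF-β) for *Itga11* and -1.82 (TGF-β) for *Itgb7*.

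Without a pseudocount, over the 31 members above 0 in all libraries, 4 were over 2-fold with GDF15 (2 lower), 6 with TGF-β (3 lower, *Itgb2* at -1.03 among them) and 2 between the stimulated libraries (both lower in TGF-β), and the median with GDF15 was 0.28. In that setting 2 basement membrane partners passed with TGF-β and 2 between the stimulated libraries, as did 1 adhesion plaque gene in each of these comparisons. With a pseudocount of 0.1, 1 member (*Itgb7*) passed between the stimulated libraries, and 1 adhesion plaque gene with TGF-β and 1 between the stimulated libraries. Called at 1.5-fold, chosen after seeing the data, 7 members passed with TGF-β and 1 between the stimulated libraries. Of the 11081 genes above 0 in all libraries, 5.32% (GDF15), 7.12% (TGF-β) and 4.74% (between the stimulated libraries) were over 2-fold without a pseudocount, and of all genes 2.03%, 3.14% and 1.46% with one of 0.1. Where each library held under 20 estimated fragments, intervals were wide, and that of the GDF15 to CTRL ratio was 0.483 to 3.63 for *Itga8* and 0.404 to 4.45 for *Lama2*, which include 1, and 0.136 to 0.867 for *Itgal*, which does not.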

Other observations

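The table also lists genes that share the integrin prefix without being subunits. *Itgbl1*, which encodes a secreted protein with integrin β-like repeats, was at 28.1 (CTRL), 50.05 (GDF15) and 39.3 (TGF-β) FPKM. GDF15 was the highest library, with a change of 0.81, beside one of 0.47 with TGF-β. *Itgb3bp*, which encodes a centromere protein, was at 2.25, 2.24 and 2.08 in the same order, with changes of -0.01 and -0.08. *Itgb1bp2*, known from muscle, was at most 0.210, and *Itgb1bp3* and *Itgb2l* were listed at 0 in all libraries.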
